A study of Columba livia with 18 samples.

Results

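The genes described here are 10 genes whose products belong to the extracellular matrices over the sensory epithelium of the inner ear or to the supporting cells that surround hair cells, namely TECTA, TECTB, OTOG, OC90, GJB6, LFNG, JAG1, HES5, PROX1 and SOX2. They were chosen by name from the annotation in the deposited table, where each gene model carries the symbol of the protein it most resembles. The 10 symbols matched 14 of the 20918 gene models of the table, 16209 of which carry a symbol, because TECTA is the name of 3 models and GJB6 and HES5 of 2 models each.

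The study asked which transcripts differ between auditory hair cells of the pigeon with and without a cuticulosome, a body rich in iron that lies beneath the hair bundle within the cuticular plate. Both groups came from the same 9 pigeons, 1 year of age, without any treatment. From each bird 1 pool of 30 cuticulosome positive and 1 pool of 30 cuticulosome negative hair cells was picked by micromanipulator from the lightly trypsinised cochlear duct after the lagena had been taken off, and the full-length cDNA of each pool was amplified and sequenced as single reads of 50 bp. The 18 libraries were sequenced on 3 flow cells with 3 birds each, birds 433, 434 and 435 on flow cell 1, birds 450, 451 and 458 on flow cell 2, and birds 513, 514 and 515 on flow cell 3. Each library is therefore an average over a pool of hand-picked cells, and no library of supporting cells or of whole epithelium was analysed here. In such pools, fewer cells of a type and less RNA per cell cannot be told apart.

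A tectorial membrane covers the hair bundles of the basilar papilla. Its main glycoproteins are alpha-tectorin and beta-tectorin, which in the chick are made by supporting cells and other non-sensory cells next to the hair cells. Otogelin is a large mucin-like protein of the acellular membranes of the mammalian inner ear, and otoconin-90 is the major protein of the otoconia in mice. Supporting cells are joined by gap junctions, while mature hair cells have none. During development Notch ligands on one cell hold its neighbours in the supporting cell fate through targets of the HES family, and SOX2 and PROX1 are transcription factors found in supporting cells of the mammalian cochlea.

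Values are FPKM (fragments scaled to transcript length and to mapped reads), which the authors estimated with Cufflinks, so that levels can be set beside each other between genes per length. The log2 difference is the mean over birds of log2(FPKM + 1) in the cuticulosome positive minus the cuticulosome negative library, a scale that understates the change of low genes. The libraries differed in ways that touch these genes. Between 8855 and 16008 gene models were above 0 per library, and the number was higher in the positive library of 8 of 9 birds (exact sign-flip permutation p = 0.0156, two-sided). The relative depth, estimated from the steps of the lowest values, ranged from 0.514 to 1.44. The pools carried hair cell transcripts: OTOF, the calcium sensor of hair cell transmitter release, had 1193 ± 560 FPKM (SD, n = 18). The positive library of bird 435 stood apart. Its summed hair cell markers were the lowest (1474 FPKM, against 4139 to 20309 elsewhere), and it had the highest sum of glial markers (1864 FPKM, against at most 40.5 elsewhere) and of markers of ion-transporting epithelium (1120 FPKM), and the most gene models above 0. The negative library of the same bird had the highest sums of supporting cell markers (1988 FPKM) and of haemoglobins and other red blood cell markers (37327 FPKM).

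A value of 0 in the table may be a failed estimate. CALB1, which encodes the calcium buffer calbindin of hair cells and had a median of 9713 FPKM, is listed at 0 in 1 library, as are 2 other gene models among the 3 with a median above 100 FPKM that are listed at 0 in some library. Members listed at 0 are therefore given by their single values.

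Of the 14 gene models, 10 had a mean above 1 FPKM over the 18 libraries and were tested by limma among 11393 gene models, with the bird as a block. They stand for 8 of the 10 genes. None was called at an adjusted p of 0.05 in either direction. Neither was any other of the 11393 (0.0% higher, 0.0% lower in cuticulosome positive cells), the smallest adjusted p of limma being 0.902. The paper did report genes past that threshold in its own DESeq2 test of read counts, which was not used here. None of the 10 had an unadjusted limma p under 0.05, against 3.27% of all tested models that were higher and 2.01% that were lower, and none had an exact sign-flip permutation p under 0.05, against 2.9% higher and 1.89% lower. The smallest exact p that 9 pairs without equal values allow is 0.0039. HES5 CLIV_003452 had equal values in 4 birds, which left too few pairs for an exact p under 0.05 whatever its other values. The other tested models could have passed that threshold. On the log2 scale 5 of the 10 models were higher and 5 lower in positive cells (53.9% and 46.1% of all tested models), with a median difference of -0.00018 beside 0.05 over all tested models. The remaining 4 models, those of PROX1 and SOX2 and 2 of TECTA, lay under the filter. In each of the 14 models the values of positive and negative cells overlapped, as they did in all tested models (0.0% without overlap).

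**Figure D1:**
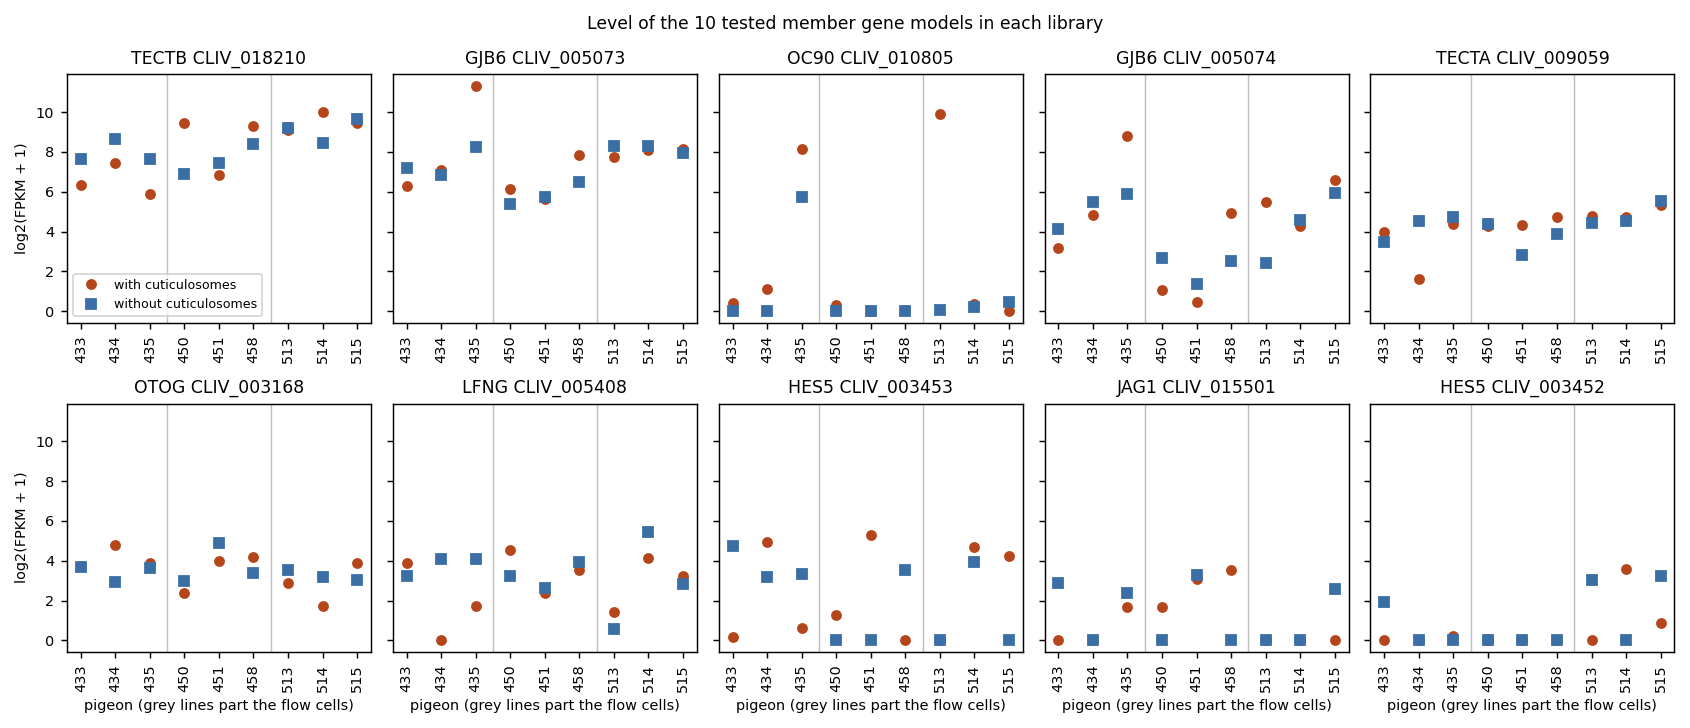
Level of the 10 tested gene models in the 18 libraries, as log2(FPKM + 1) on the y axis and the pigeon on the x axis, with circles for cuticulosome positive and squares for cuticulosome negative cells. The 18 TECTB libraries lie between 57.5 and 1021 FPKM, while OC90 is above 1 FPKM in 4 libraries.

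TECTB, which encodes beta-tectorin, was the most abundant of the genes. Its model CLIV_018210 on scaffold 191 had a mean of 400 ± 287 FPKM (SD, n = 18), rank 260 among all gene models. In positive cells it ranged from 57.5 FPKM over a median of 550 to 1021, and in negative cells from 117 over 336 to 793. The range of the negative cells lay within that of the positive cells, and the lowest value belonged to the positive library of bird 435, which was also the lowest in hair cell markers. The positive library was higher in 3 birds and lower in 6, with a log2 difference of -0.01 (SE 0.37, 95% confidence interval -0.79 to 0.77, exact permutation p = 0.984, adjusted p of limma 0.998).

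The differences varied between flow cells. In the 3 birds of flow cell 1 TECTB was lower in every positive library, 79.5 against 202, 175 against 407 and 57.5 against 201 FPKM for birds 433, 434 and 435. On flow cell 2 it was 707 against 117, 116 against 171 and 634 against 336 FPKM in birds 450, 451 and 458. On flow cell 3 the pairs were 550 against 585, 1021 against 346 and 698 against 793 FPKM in birds 513, 514 and 515. The mean log2 differences on the 3 flow cells were -1.45, 0.98 and 0.43, and the interaction of cell type and flow cell had an unadjusted limma p of 0.00808. After adjustment over all tested models it was 0.994, and 4.55% of all models had an unadjusted interaction p under 0.05, so that 1 such model among 10 is not set apart from the background. The overall TECTB level also differed between the flow cells, with medians of 188, 254 and 641 FPKM in the 6 libraries of flow cells 1, 2 and 3. Each flow cell held its own 3 birds, so flow cell and birds cannot be told apart, and this difference in level was not tested. Leaving out flow cell 1 gave a log2 difference of 0.70.

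TECTA, which encodes alpha-tectorin, was represented mainly by model CLIV_009059 on scaffold 367, with 21.0 ± 10.5 FPKM (SD, n = 18). Levels ran from 2.09 FPKM over a median of 20.1 to 39.9 in positive cells and from 5.99 over 20.8 to 45.6 in negative cells. It was above 1 FPKM in all 18 libraries. Apart from 2.09 FPKM in the positive library of bird 434 and 5.99 FPKM in the negative library of bird 451, every library lay between 10.3 and 45.6 FPKM. This gave a log2 difference of -0.01 (SE 0.42, 95% confidence interval -0.90 to 0.88, exact permutation p = 0.977, adjusted p of limma 0.998), with 5 birds higher and 4 lower in positive cells. Without bird 434 it was 0.34 (exact permutation p = 0.156). The annotation of this model carries the von Willebrand factor, nidogen-like and zona pellucida domains of alpha-tectorin and, in addition, a fatty acid hydroxylase domain. SC5D, a sterol desaturase gene, is the neighbour of TECTA in the RefSeq annotation of a later pigeon assembly, and 0 models of the deposited table are named SC5D. Whether the model also holds reads of SC5D was not tested.

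The other 2 models named TECTA were nearly empty. CLIV_008599 on scaffold 669 had 11.3 FPKM in the negative library of bird 451 and is listed at 0 in the other 17 libraries. The annotation ties it to another RefSeq gene, LOC102089216, and not to TECTA itself. CLIV_021494 on scaffold C16799296 had 0.417 FPKM in the positive library of bird 513, 0.0968 FPKM in that of bird 435, and 0 in 16 libraries. Summed over its 3 models TECTA had a log2 difference of -0.16 (exact permutation p = 0.883).

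OTOG, the gene of otogelin, was lower but present throughout. Its model CLIV_003168 on scaffold 16 had 11.9 ± 7.04 FPKM (SD, n = 18), between 2.29 and 26.8 with a median of 13.6 in positive cells and between 6.75 and 29.2 with a median of 9.62 in negative cells. The negative library of bird 451 was the highest and the positive library of bird 514 the lowest. The log2 difference of 0.01 (SE 0.44, 95% confidence interval -0.92 to 0.95, exact permutation p = 0.977, adjusted p of limma 0.998) was far within the spread between birds, 5 of which were higher and 4 lower.

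OC90, the gene of otoconin-90, was the tested member with the largest log2 difference and with the largest share of its signal in 1 library. In the positive library of bird 513 model CLIV_010805 on scaffold 419 reached 952 FPKM, in that of bird 435 282 FPKM, and in the negative library of bird 435 52.9 FPKM. These 3 libraries held 99.8% of the OC90 signal, and 1 library alone held 73.8%. The highest value elsewhere was 1.17 FPKM, in the positive library of bird 434. OC90 passed the filter on the mean only through these 3 libraries.

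In the positive libraries of birds 433, 450, 451, 458, 514 and 515 OC90 had 0.330, 0.243, 0, 0.0633, 0.267 and 0.0214 FPKM. In the negative libraries of birds 433, 434, 450, 451, 458, 513, 514 and 515 it had 0.0170, 0.0172, 0, 0, 0, 0.0381, 0.172 and 0.369 FPKM. The gene was thus either abundant or at the bottom of the scale, and the direction in most birds rests on values under 1 FPKM. The positive library was higher in 7 birds, lower in bird 515 and equal in bird 451, where both are listed at 0. The log2 difference was 1.53 (SE 0.86, 95% confidence interval -0.29 to 3.36, exact permutation p = 0.0625, unadjusted limma p = 0.094, adjusted 0.902). Without bird 513 it fell to 0.50 (exact permutation p = 0.125). Without bird 515, the only bird lower in positive cells, the exact permutation p was 0.0156, the smallest that the 7 remaining unequal pairs allow.

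Bird 435 and bird 513 also led several marker lists. Markers of ion-transporting epithelium were highest in the positive library of bird 435 (1120 FPKM), the negative library of bird 513 (813 FPKM) and the positive library of bird 513 (691 FPKM), and the leukocyte markers were highest in the negative libraries of birds 513 (770 FPKM) and 435 (757 FPKM) and the positive library of bird 513 (725 FPKM). The negative library of bird 513, which belongs to that set, had 0.0381 FPKM of OC90. Most of the leukocyte sum was CD74, with 723 FPKM in the positive library of bird 513 and 725 FPKM in the negative library of bird 435. In the positive library of bird 513 CSF1R and PTPRC had 0.109 and 0.277 FPKM, and LCP1 was at the median of the positive libraries. In the negative library of bird 435 CSF1R and LCP1 had 25.4 and 6.32 FPKM, and PTPRC is listed at 0. Of the ion-transport list, BSND, the gene of barttin, is known from marginal and dark cells of the mammalian ear. BSND had 90.6, 62.0 and 41.0 FPKM in the positive library of bird 435, the positive library of bird 513 and the negative library of bird 435. Other models of the list went the other way, and KCNQ1 CLIV_013778 and CLIV_013779, named like BSND after their values had been seen, were at their lowest of 18 libraries in the positive library of bird 435, with 17.5 and 12.3 FPKM. The part of these markers in the OC90 values was not tested. Among the 11393 tested models 212 (1.86%) had their highest values in the same 3 libraries as OC90, and 70 of these are listed at 0 in at least 10 of the other 15.

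**Figure D2:**
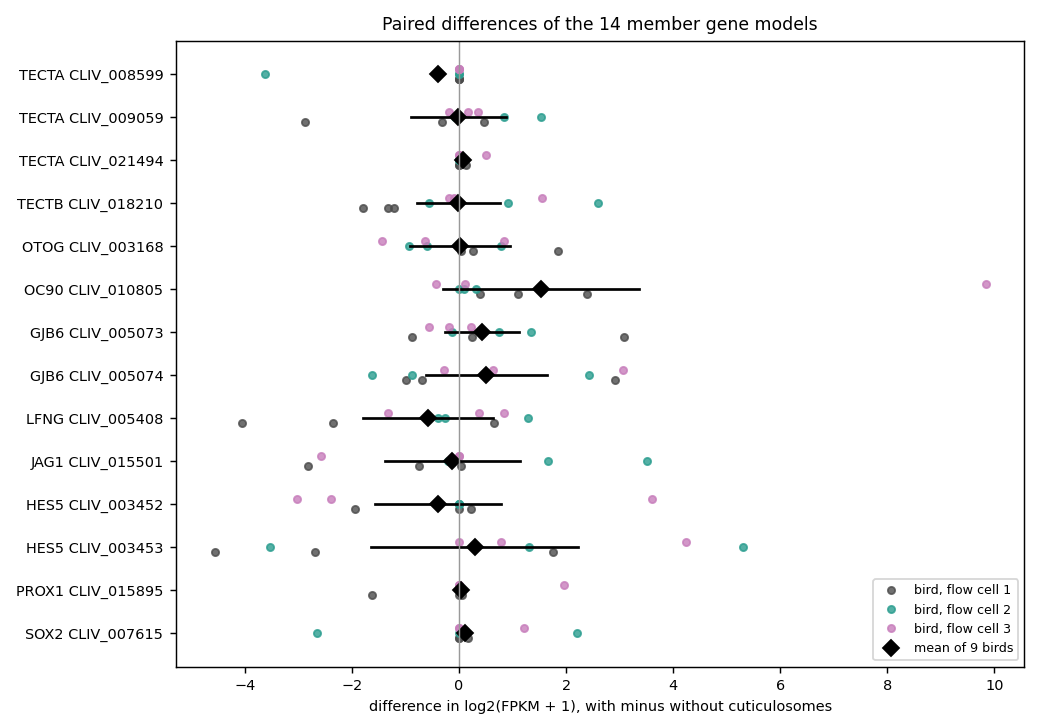
Difference in log2(FPKM + 1), cuticulosome positive minus cuticulosome negative, for the 14 gene models, with 1 small point per bird coloured by flow cell, a diamond for the mean of 9 birds and a bar for the 95% confidence interval of limma for the 10 tested models. The single OC90 point near 10 is bird 513, and the 3 flow cell 1 points of TECTB lie below 0.

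GJB6 encodes connexin 30, a gap junction subunit of cochlear supporting cells in mammals. Both models named GJB6 lie on scaffold 59, between models named GJA3 and CRYL1. CLIV_005073 was the second most abundant member, with 307 ± 573 FPKM (SD, n = 18), rank 340. It was between 48.1 and 2569 FPKM with a median of 210 in positive cells and between 41.4 and 316 FPKM with a median of 145 in negative cells. The positive library of bird 435 alone held 46.5% of the sum, and the next highest positive library, that of bird 515, had 287 FPKM, so that apart from that library the 2 groups overlapped. Positive minus negative, the log2 difference was 0.43 (SE 0.32, 95% confidence interval -0.26 to 1.12, exact permutation p = 0.355, adjusted p of limma 0.902), with 5 birds higher and 4 lower. Without bird 435 it was 0.10.

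Model CLIV_005074 had a lower level, 48.9 ± 101 FPKM (SD, n = 18). It ran from 0.378 over a median of 27.1 to 439 FPKM in positive cells and from 1.54 over 16.8 to 60.1 FPKM in negative cells. The highest value was again the positive library of bird 435, with 49.9% of the sum, and the lowest was that of bird 451. Its log2 difference was 0.51 (SE 0.53, 95% confidence interval -0.62 to 1.64, exact permutation p = 0.422, adjusted p of limma 0.903), higher in 4 birds and lower in 5. In birds 434, 450 and 513 the 2 models went in opposite directions. In bird 513 CLIV_005074 had 44.5 FPKM in positive against 4.43 FPKM in negative cells, and CLIV_005073 had 210 against 311 FPKM. With 1 bird left out at a time the differences ran from 0.10 to 0.60 for CLIV_005073 and from 0.19 to 0.77 for CLIV_005074.

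The first model was higher than the second in all 18 libraries, with a ratio between 2.61 and 127 and a median of 8.12. On the log2 scale the models had a Pearson r of 0.82 and a Spearman rho of 0.66 over the 18 libraries, which share birds and flow cells. The RefSeq table of a later assembly has 2 unnamed genes between GJA3 and CRYL1, and the deposited annotation ties CLIV_005073 to LOC102084020, one of them. In other birds and mammals the connexin genes GJB2 and GJB6 are neighbours, and the deposited table has no model named GJB2. Which of the 2 models is which gene is not given in the sources used here, and because the proteins are alike, reads may have been split between them. Of the other connexins listed, only GJA1, the gene of connexin 43, passed the filter, with means of 14.3 FPKM in positive and 12.3 FPKM in negative cells (log2 difference 0.41).

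The positive library of bird 435 had, next to its GJB6 level, the lowest hair cell sum and the second highest supporting cell sum (905 FPKM), and OTOF was at 151 FPKM there. The negative library of that bird, highest in the supporting cell sum, had 303 and 57.8 FPKM of the 2 GJB6 models, within the range of the other negative libraries. TIMP3 and VIM, which connective tissue cells also express, made up 1556 and 308 FPKM of that sum, against 472 and 169 FPKM in the positive library. SOX9 and HES1 were higher in the positive library, with 79.4 against 19.3 and 73.8 against 23.6 FPKM. So were both SLC1A3 models, with 23.5 against 13.7 and 12.9 against 9.46 FPKM, and CDKN1B CLIV_013775, with 61.8 against 48.5 FPKM. HEY2 and FGFR3 were also higher in the positive library. HEY1, like TIMP3 and VIM, was lower there, with 1.27 against 7.30 FPKM. The part of these markers in the GJB6 values was not tested.

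**Figure D3:**
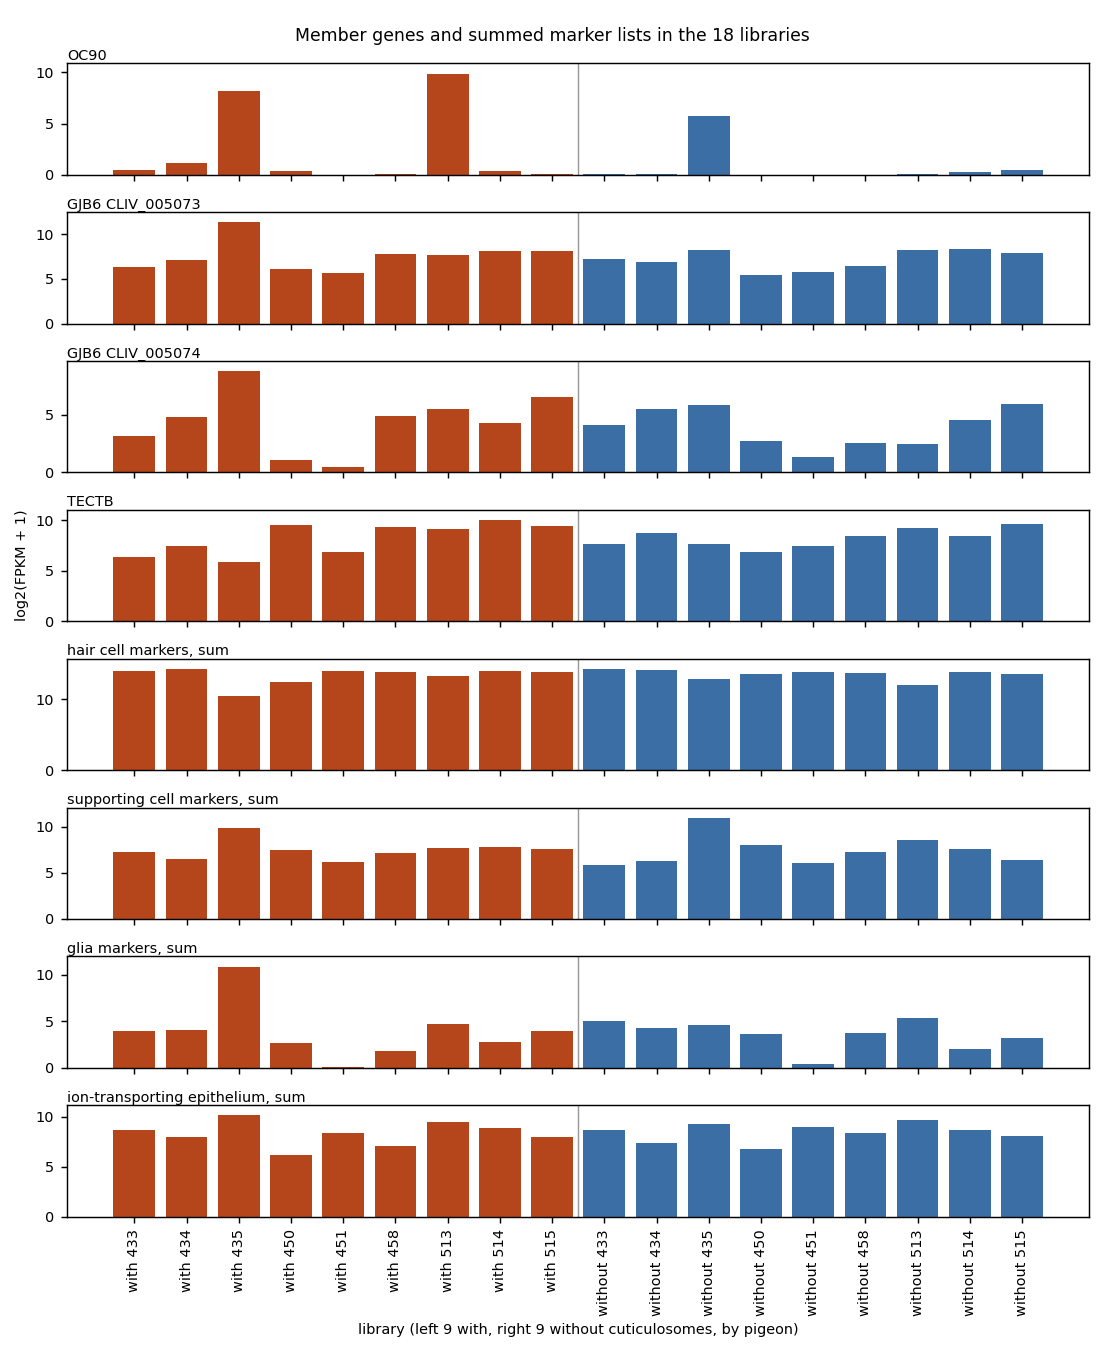
Levels of OC90, the 2 GJB6 models and TECTB, and sums over hair cell, supporting cell, glial and ion-transporting epithelium markers, as log2(FPKM + 1) in the 18 libraries, the 9 cuticulosome positive libraries on the left and the 9 cuticulosome negative ones on the right. The positive library of bird 435 has the lowest hair cell sum, the highest glial sum and the highest bars of both GJB6 models, and 3 libraries carry OC90.

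Among the Notch genes LFNG, which encodes the lunatic fringe glycosyltransferase that modifies Notch receptors and is known from supporting cells in the mouse, was the most regularly detected. Model CLIV_005408 on scaffold 146 ranged from 0.0227 over a median of 8.38 to 22.2 FPKM in positive cells and from 0.504 over 8.52 to 43.0 FPKM in negative cells, and was above 1 FPKM in 16 of 18 libraries. The mean was 8.87 ± 7.58 FPKM in positive and 13.2 ± 12.4 FPKM in negative cells (SD, n = 9 each). The groups overlapped over most of their ranges. LFNG had the largest negative log2 difference of the tested members, -0.58 (SE 0.57, 95% confidence interval -1.79 to 0.63, exact permutation p = 0.371, adjusted p of limma 0.902), with 5 birds lower and 4 higher. It was -0.15 without bird 434, whose positive library had 0.0227 against 16.1 FPKM in the negative one.

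JAG1 encodes the Notch ligand Jagged 1, found on supporting cells of the mammalian cochlea. Model CLIV_015501 on scaffold 490 was above 1 FPKM in 8 libraries and is listed at 0 in 7. Positive libraries had 0.022, 0.027, 2.15, 2.16, 7.34, 10.5, 0, 0 and 0.010 FPKM in birds 433, 434, 435, 450, 451, 458, 513, 514 and 515. In the negative libraries of these birds the values were 6.26, 0, 4.27, 0, 8.67, 0, 0, 0 and 5.05 FPKM. Only birds 435 and 451 had more than 1 FPKM in both libraries. Its log2 difference was -0.13 (SE 0.59, 95% confidence interval -1.38 to 1.13, exact permutation p = 0.828).

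HES5 encodes a transcriptional repressor that is a direct target of Notch. Both HES5 models lie on scaffold 693. The positive libraries of birds 434, 451, 514 and 515 had 29.7, 38.6, 25.1 and 17.9 FPKM of CLIV_003453, and the negative libraries of birds 433, 434, 435, 458 and 514 had 25.9, 8.06, 9.05, 10.6 and 14.1 FPKM. It was between 0.136 and 1.46 FPKM in 3 further positive libraries and is listed at 0 in the remaining 6 libraries, 2 positive and 4 negative. The same bird could hold both extremes, as in bird 451 with 38.6 against 0 FPKM and in bird 433 with 0.136 against 25.9 FPKM. The log2 difference was 0.29 (SE 0.91, 95% confidence interval -1.64 to 2.22, exact permutation p = 0.805).

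The second model, CLIV_003452, is listed at 0 in 12 libraries. It had 11.1 FPKM in the positive library of bird 514 and 8.56, 7.17 and 2.85 FPKM in the negative libraries of birds 515, 513 and 433. The positive libraries of birds 515 and 435 had 0.829 and 0.160 FPKM. Its log2 difference was -0.39 (SE 0.56, 95% confidence interval -1.58 to 0.79, exact permutation p = 0.625). Summed over both models, between which reads may have been split, HES5 had a log2 difference of -0.35 (exact permutation p = 0.758), opposite in sign to that of CLIV_003453 alone.

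SOX2 and PROX1 encode transcription factors and were at 0 in most libraries. SOX2, model CLIV_007615 on scaffold 244, had 3.61, 1.33 and 0.930 FPKM in the positive libraries of birds 450, 515 and 435 and 5.28 and 0.721 FPKM in the negative libraries of birds 458 and 435, and is listed at 0 in 13 libraries. PROX1, model CLIV_015895 on scaffold 108, had 2.91 and 0.0338 FPKM in the positive libraries of birds 515 and 435 and 2.07 FPKM in the negative library of bird 433, and is listed at 0 in 15. Neither had a mean above 1 FPKM. Exact permutation tests over the 9 pairs gave log2 differences of 0.10 (p = 0.875) for SOX2 and 0.04 (p = 0.75) for PROX1. With most values at 0, a difference in these 2 genes was not detectable.

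Averaged over both libraries of each bird, the members fell into an order of levels on the log2(FPKM + 1) scale. TECTB (8.21) and GJB6 CLIV_005073 (7.38) stood at the top, with TECTB higher in 8 of 9 birds and an exact permutation p of 0.156 for the pair. A gap of 3.13 separated GJB6 CLIV_005073 from TECTA CLIV_009059 (4.25), and all 9 birds showed it (exact permutation p = 0.0039, the smallest these pairs can give). Below it came GJB6 CLIV_005074 (4.15), OTOG (3.49), LFNG (3.06), HES5 CLIV_003453 (2.22), OC90 (1.49) and JAG1 (1.17), and HES5 CLIV_003452, SOX2, PROX1 and the 2 minor TECTA models followed under 1. Of the 13 pairs of neighbours in this order, 12 did not differ beyond the spread between birds at an exact p of 0.05. The order and the pairs were set by the same values, so the exact p-values carry that choice and do not test the order. The pairs among SOX2, PROX1 and the 2 minor TECTA models were equal in too many birds to reach 0.05.

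Across the 18 libraries the tested members did not rise and fall as 1 group. Over the 45 pairs of models the median Pearson r of log2(FPKM + 1) was -0.01, with a range from -0.57 to 0.82. The 2 tectorins had an r of 0.45 (Spearman rho 0.58), while OTOG had -0.57 with TECTA and -0.51 with TECTB. OC90 had an r of 0.55 with each GJB6 model. Without the positive library of bird 435 these were 0.29 with CLIV_005073 and 0.37 with CLIV_005074 over 17 libraries, and the 2 GJB6 models had 0.74 with each other. All of these values describe libraries that share birds and flow cells.

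By Pearson r over the same 18 libraries, these annotated gene models outside the members were most like each member in level. They were picked as the most alike of all annotated models that passed the filter, so their r values carry that choice and were not tested. For TECTB they included C1QTNF4 (0.81) and MRPL38 (0.76), and for TECTA CLIV_009059 they were CREM (0.79), INTS10 (0.76) and STX8 (0.76). OTOG was most like GPBP1L1 (0.84), RPS6KA (0.82) and RECQL5 (0.82). For GJB6 CLIV_005073 they were CD9 (0.87), F3 (0.84) and RND3 (0.83), and CD9, the gene of a tetraspanin, had 1613 FPKM in the positive library of bird 435 against a median of 31.7. For GJB6 CLIV_005074 NFIA (0.83), GM2A (0.83) and TMEM213 (0.82) led. The 3 models most like OC90 were IL17RC (0.99), CRYBA2 (0.98) and SGK2 (0.98), which are listed at 0 in 13, 15 and 12 libraries and were high in the same 3 libraries. IL17RC had 21.6, 12.3 and 3.65 FPKM, CRYBA2 26.0, 5.97 and 5.42 FPKM, and SGK2 30.0, 13.5 and 14.7 FPKM in the positive library of bird 513, the positive library of bird 435 and the negative library of bird 435. LFNG was most like PDCL (0.73), MUL1 (0.72) and ARCN1 (0.70), JAG1 like SMARCA5 (0.91), MAP3K8 (0.86) and PHF12 (0.79), HES5 CLIV_003453 like WDR47 (0.77), PLB1 (0.75) and BTRC (0.75), and HES5 CLIV_003452 like IL17B (0.86), HGD (0.85) and CAD87A (0.76).

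The wider Notch pathway was followed in 29 listed genes beside the members, of which 24 were found, in 28 models. Of these, 22 passed the filter, 14 of them higher and 8 lower in positive cells, 0 called, with a median log2 difference of 0.13 beside 0.05 over all tested models. HES1, which was higher, and MAML2 CLIV_014545, which was lower, were the 2 with an unadjusted limma p under 0.05. Among all tested models 3.27% were higher and 2.01% lower with such a p. MAML2 CLIV_014545 had a log2 difference of -1.08 (exact permutation p = 0.25) and is listed at 0 in 13 libraries. The MAML2 models CLIV_014546, which lay under the filter, and CLIV_018334 had log2 differences of 0.57 and 0.11. The single list gene with the same direction in at least 8 birds was HES1, another repressor downstream of Notch. In HES1, medians were 14.3 FPKM in positive and 0.0395 FPKM in negative cells, with 4 libraries listed at 0 and the highest value, 73.8 FPKM, in the positive library of bird 435. Its log2 difference was 1.90 (SE 0.72, exact permutation p = 0.0508, unadjusted limma p = 0.0173, adjusted 0.902), higher in 8 of 9 birds. Among all tested models 1.76% were higher in at least 8 birds.

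Of 20 listed genes of tectorial and otolithic matrix beside the members, 17 were found in 20 models, and 10 models passed the filter, 6 higher and 4 lower, 0 called, with a median of 0.13. Among the closest relatives of the members, OTOGL, the otogelin-like gene, had means of 3.67 FPKM in positive and 2.89 FPKM in negative cells and OTOL1, the gene of the otolith collagen otolin-1, had 5.07 and 4.87 FPKM in CLIV_011346, with log2 differences of 0.02 and -0.22. These were named after their values had been seen. CA2, carbonic anhydrase 2, was the highest of the list, with 445 ± 176 FPKM in positive and 518 ± 90.8 FPKM in negative cells (SD, n = 9 each). It was lower in the positive library of 8 birds (log2 difference -0.32, SE 0.18, exact permutation p = 0.0625, unadjusted limma p = 0.0841, adjusted 0.902), beside 1.3% of all tested models lower in at least 8 birds.

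Other supporting cell markers than the members were weak and uneven in the same pools. Of 14 listed genes 13 were found in 15 models, and 10 models passed the filter. All 10 were higher in positive cells on the log2 scale, beside 53.9% of all tested models, with a median of 0.52 and 0 called. The sums over the list hardly differed between the cell types. They were between 72.4 and 905 FPKM with a median of 172 in positive cells and between 57.8 and 1988 FPKM with a median of 156 in negative cells, higher in 5 of 9 birds (exact permutation p = 0.844). TIMP3 and VIM, which connective tissue cells also express, had 1556 and 308 FPKM in the negative library of bird 435. GFAP and SOX21 are listed at 0 in 17 of 18 libraries each.

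FGFR3, a receptor of supporting cells in the mammalian cochlea, was, with HES1, the model of this list with 1 direction in at least 8 birds. Its medians were 9.39 FPKM in positive and 0.0133 FPKM in negative cells, with 4 libraries listed at 0, and the log2 difference was 1.53 (SE 0.57, exact permutation p = 0.0156, unadjusted limma p = 0.0155, adjusted 0.902). HES1 and FGFR3 were the 2 models of the list with an unadjusted limma p under 0.05. Among all tested models 3.27% were higher with such a p, and 1.76% were higher in at least 8 birds. The genes above 0 were also more numerous in the positive library of 8 of 9 birds, and the part of that in these differences was not tested.

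**Figure D4:**
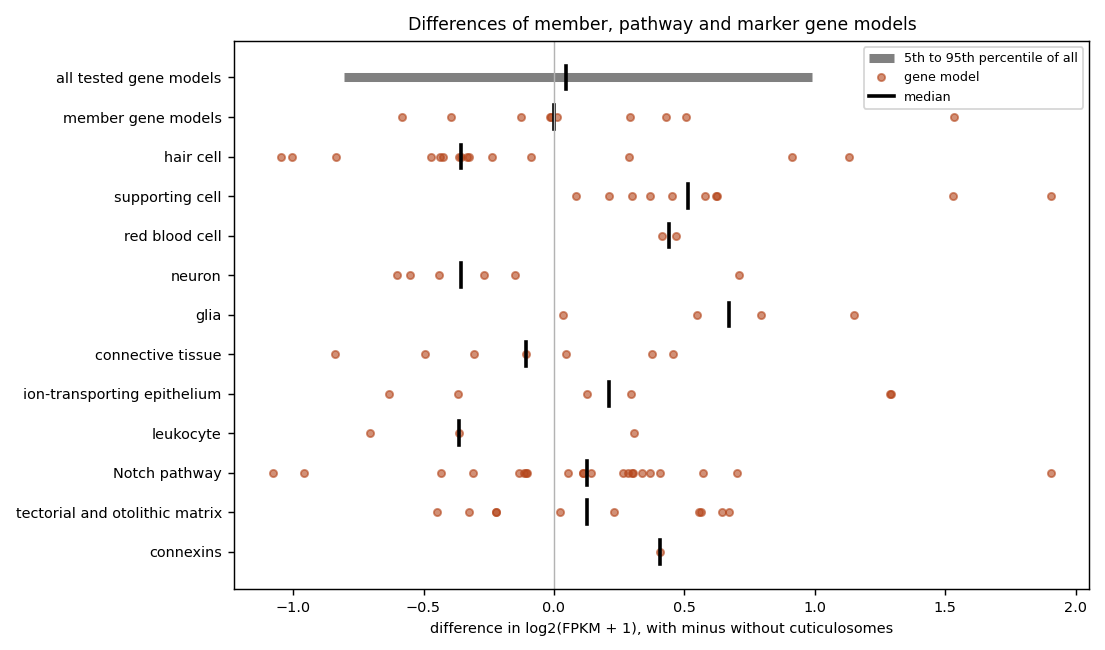
Log2 difference, cuticulosome positive minus cuticulosome negative, of each tested gene model of the members and of the marker and pathway lists, with a black tick for the median of each list and a grey bar for the 5th to 95th percentile of all 11393 tested models. The members centre on -0.00018, hair cell markers on -0.36 and supporting cell markers on 0.52, beside 0.05 for all tested models. Bird 435 is included.

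Of all tested models 46.1% were lower and 53.9% higher in positive cells, with a median of 0.05. Among the other cell types, hair cell markers had 12 of 15 tested models lower, with a median of -0.36 and 0 called. That count includes bird 435, whose positive library had 1474 FPKM of summed hair cell markers against 7271 FPKM in its negative library. The hair cell sum was 12963 ± 5967 FPKM in positive and 13071 ± 4920 FPKM in negative cells, higher in positive cells in 6 of 9 birds (exact permutation p = 0.707). Most of this sum was CALB1, with means of 8971 FPKM in positive and 8681 FPKM in negative cells. CALB1 was itself higher in positive cells in 6 birds and is listed at 0 in 1 library, so the sum says little about the other markers. Glial markers were higher in 4 of 4 models (sums from 0.025 to 1864 FPKM in positive and from 0.34 to 40.5 FPKM in negative cells), while their sum was higher in positive cells in 3 of 9 birds. Red blood cell markers were higher in 2 of 2 tested models, neuron markers in 1 of 6, connective tissue markers in 3 of 7, ion-transporting epithelium in 4 of 6 and leukocyte markers in 1 of 3. Sums ranged from 503 to 4690 FPKM in positive and 475 to 37327 FPKM in negative cells for red blood cells. The corresponding ranges were 298 to 894 and 410 to 773 FPKM for neurons, 83.3 to 507 and 74.2 to 1713 FPKM for connective tissue, 70.7 to 1120 and 111 to 813 FPKM for ion-transporting epithelium, and 2.73 to 725 and 2.97 to 770 FPKM for leukocytes. None of the 8 sums passed the test between the cell types, with exact permutation p-values adjusted over the 8 lists of 0.914 each. Over all 9 birds the red blood cell sum had a log2 difference of 0.46 (exact permutation p = 0.359), higher in positive cells in 7 birds. Each bird was left out in turn. Without bird 435, which had the highest negative sum, the difference was 0.89 (exact permutation p = 0.0234, not adjusted for the choice of bird and list). Some genes stand in more than 1 list, namely HES1, HEY1, HEY2 and NOTCH1 under both supporting cells and Notch and SPARCL1 under both supporting cells and matrix.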

How the data were processed

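The authors aligned the reads with TopHat 1.4.1, estimated FPKM with Cufflinks 1.3.0 and counted reads with HTSeq 0.6.1p1. They deposited 1 table with the FPKM of 20918 gene models in 18 libraries and 6 columns of their own DESeq2 1.10.1 comparison (mean signal, log2 fold change, standard error, Wald statistic, p-value and adjusted p-value), which were not used. Symbols came from the annotation in the table, upper-cased. The reads behind each value are not given, so no counting error was computed; the spacing of the smallest values above 0 gave each library's relative depth. Libraries were paired by pigeon number. Both libraries of a bird deviated together from their group means in all 9 birds (correlation across gene models 0.121 to 0.591, median 0.183, against -0.0646 between birds).

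Gene models with a mean FPKM above 1 (11393) were tested by limma 3.58.1 in R 4.3.3 on log2(FPKM + 1). The fit had bird as blocking factor, an intensity trend and Benjamini-Hochberg adjustment at 0.05, a design tested on simulated data. The simulated log2 values had a normal spread without listed zeros or single outlying libraries, so members with such values are not covered by it. For single models and marker sums all 512 sign patterns of the 9 paired differences were enumerated in a two-sided exact permutation test. The flow cell was tested as an interaction. Every member was named, with the list genes of 1 direction in at least 8 birds and the 3 gene models most correlated with each tested member; other genes were named after their values had been seen, and a few that the rules would name are not reported here. The members and lists were chosen with earlier results of these data known. Alternatives were no block, the flow cell as a term, no filter, a stricter filter (above 1 FPKM in 9 libraries), a pseudocount of 0.1, robust or untrended variances, 2 other scalings, summed models, and each bird and flow cell left out. The other steps ran in Python 3.11.15 with scipy 1.17.1, numpy 2.4.6 and pandas 2.3.3, and matplotlib 3.10.9 drew the plots.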

Additional observations from a re-analysis of the deposited data

Results flagged for a closer look

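In 10 of 26 groups of 9 libraries, 1 library of a member stood off from the others on the log2(FPKM + 1) scale. Its gap passed Dixon's 95% critical value for 9 values. By chance that value flags about 1 in 20 groups drawn from a normal distribution. Several of the 10 consist mostly of zeros, for which this rate does not hold. The FPKM scale itself, on which high values lie further apart, was not used. For GJB6 CLIV_005073 the library that stood off was the positive library of bird 435, with 2569 FPKM against 287 FPKM in the next. For OC90 it was the negative library of bird 435, with 52.9 FPKM against 0.369 FPKM. TECTA CLIV_009059 stood out at the low end, with 2.09 FPKM in the positive library of bird 434 against 14.6 FPKM in the next, and OTOG at the high end, with 29.2 FPKM in the negative library of bird 451 against 12.1 FPKM. That negative library also held the single value of TECTA CLIV_008599, 11.3 FPKM against 0 in the other 8. TECTA CLIV_021494 had 0.417 FPKM in the positive library of bird 513 against 0.0968 FPKM, and HES5 CLIV_003452 11.1 FPKM in the positive library of bird 514 against 0.829 FPKM. PROX1 had 2.91 FPKM in the positive library of bird 515 against 0.0338 FPKM, and 2.07 FPKM in the negative library of bird 433 against 0. SOX2 had 5.28 FPKM in the negative library of bird 458 against 0.721 FPKM.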

How the results depend on the processing

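Under the 22 other settings of the fit 0 gene models were called, the smallest adjusted p of limma being 0.717 over all models and 0.741 over the members, while 295 to 771 models had an unadjusted p under 0.05. Without the block for the pairing by bird 0 were called and 295 had an unadjusted p under 0.05, and the members' log2 differences were the same by construction. The signs of small differences depended on the setting, and the causes were not tested. TECTA CLIV_009059 and TECTB became 0.017 and 0.019 with scaling by median ratios, 0.17 and 0.17 with upper-quartile scaling, which moved the median of all models by 0.14, and 0.44 and 0.70 without flow cell 1. Without flow cell 1 OTOG was -0.34, LFNG 0.088 and JAG1 0.40, and with a pseudocount of 0.1 OTOG was -0.014. HES5 CLIV_003453 was -0.077 without flow cell 2 and -0.40 without flow cell 3, and the summed HES5 models -0.35. Without flow cell 3 JAG1 was 0.24, PROX1 -0.26 and SOX2 -0.047. With 1 bird left out the log2 difference crossed 0 for TECTA CLIV_009059 (-0.21 to 0.34), TECTB (-0.34 to 0.21), OTOG (-0.22 to 0.19), JAG1 (-0.58 to 0.21), HES5 CLIV_003453 (-0.34 to 0.90), PROX1 (-0.20 to 0.25) and SOX2 (-0.16 to 0.45), and for the summed markers of supporting cells (-0.11 to 0.20), hair cells (-0.35 to 0.10), glia (-0.48 to 0.55), ion-transporting epithelium (-0.25 to 0.016), leukocytes (-0.86 to 0.060) and neurons (-0.14 to 0.0018). The exact permutation p of OC90 was 0.0391 with upper-quartile scaling and lay between 0.0156 (without bird 515) and 0.125 with 1 bird left out. The GJB6, OC90 and LFNG differences kept their sign whichever bird was left out. With zeros in 4 to 17 libraries for 8 of the 14 models and no read numbers, low members cannot be compared firmly.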
